A study of Schmidtea mediterranea with 18 samples.

Results

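The transcript of *lysosomal acid lipase* (*LAL*, dd_Smed_v6_4693_0_1) was followed in starved planarians over 4 weeks of *hippo* inhibition. It is 1 of the 41745 transcripts in the deposited table. The transcript is listed with the name *LAL* in the study's supplementary list of cell cycle genes, where the name rests on homology with a predicted gene and the gene is entered under the transition from G1 to S phase. It was chosen from its values in these same libraries, namely the levels in both treatments at each time point. Its levels and differences are therefore given as a description, with no test. The assembly holds 1 transcript under this number. Sharing of reads with a similar lipase under another number was not examined.

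RNA was taken from whole planarians of the species *S. mediterranea*, asexual BCN-10 clonal line. *hippo (RNAi)* animals were injected with double-stranded RNA for *Smed-hippo* and were taken after 1, 3 or 4 weeks. Controls, *gfp (RNAi)*, were treated for the same times with double-stranded RNA of *green fluorescent protein*, which has no target in these animals. Animals of both treatments had been starved for at least 1 week beforehand and were kept without food, so time under RNAi and time without food advanced together and cannot be told apart. Each of the 6 groups has 3 libraries, each from a pool of 5 animals. These are bulk libraries, in which fewer cells of a type and less RNA per cell cannot be told apart.

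Lysosomal acid lipase is known in mammals, where *LIPA* encodes it, as the enzyme that splits cholesteryl esters and triglycerides inside the lysosome. The substrates reach it by endocytosis or by autophagy of lipid droplets, and the fatty acids released can be used as fuel when food is short. In starvation planarians shrink while they keep renewing their cells, and their intestinal cells store lipid. Kinases of the Hippo pathway phosphorylate the transcriptional co-activator Yorkie and so keep it out of the nucleus.

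Values are TPM, a measure of abundance that corrects for transcript length and is scaled to one total in every library. The depth behind a TPM value is unknown. The Spearman's rho of 2 libraries of one group lay between 0.940 and 0.963 across transcripts. Differences were taken on the log2(TPM + 1) scale, with the standard error (SE) from 1 limma fit of the 28735 transcripts that averaged 1 TPM or more. This scale understates the change of low values. The *hippo (RNAi)* libraries numbered 266 to 269 lie apart in number from the other libraries of 3 and 4 weeks, with *hippo (RNAi)* libraries 260O and 264O numbered among the controls. The meaning of these numbers is not stated in the sources used here. The names of cell type markers could not be matched to transcripts, so neither the tissue nor *hippo* itself was checked.

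At each time point, every *hippo (RNAi)* library had less *LAL* than every control. After 1 week, *LAL* was at 28.7, 30.0 and 30.1 TPM in *hippo (RNAi)* animals, against 36.4, 45.0 and 46.3 TPM in controls. The groups did not overlap, but the lowest control (library 251O) stood only 6.30 TPM above the highest *hippo (RNAi)* library. After 3 weeks, *LAL* was at 16.8, 18.03 and 19.8 TPM in *hippo (RNAi)* animals, against 44.2, 48.3 and 49.5 TPM in controls. After 4 weeks, *LAL* was at 16.6, 19.6 and 20.2 TPM in *hippo (RNAi)* animals, against 54.8, 58.0 and 58.7 TPM in controls. The empty interval between the treatments was 24.4 TPM at 3 weeks and 34.7 TPM at 4 weeks. Across all weeks the highest of the 9 *hippo (RNAi)* libraries, at 30.1 TPM, was below the lowest of the 9 controls, at 36.4 TPM.

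**Figure D1:**
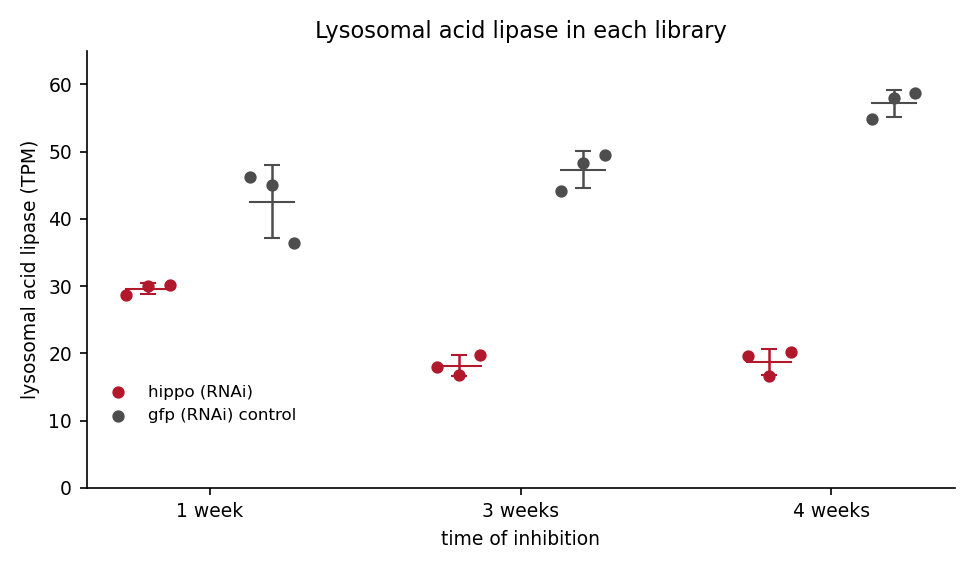
Level of *lysosomal acid lipase* in TPM (vertical axis, from 0) at 1, 3 and 4 weeks of inhibition, with 1 point per library, *hippo (RNAi)* in red and *gfp (RNAi)* controls in grey. Horizontal lines are group means and bars the SD (n = 3 libraries); the highest *hippo (RNAi)* library of any week is at 30.1 TPM and the lowest control at 36.4 TPM.

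In means, *LAL* was at 29.6 ± 0.81 TPM (SD, n = 3 libraries) in *hippo (RNAi)* animals, against 42.6 ± 5.36 TPM in controls after 1 week, which is 69.6% of the control level. After 3 weeks it was at 18.2 ± 1.51 TPM in *hippo (RNAi)* animals, against 47.3 ± 2.80 TPM in controls, or 38.4% of the control level. After 4 weeks the means were 18.8 ± 1.93 TPM in *hippo (RNAi)* animals, against 57.2 ± 2.05 TPM in controls, or 32.8%. The level in *hippo (RNAi)* animals relative to controls was thus lower at each later time point. On the log2 scale the difference between *hippo (RNAi)* animals and controls was -0.50 at 1 week, -1.33 at 3 weeks and -1.56 at 4 weeks (SE 0.09 each). The gap seen at 1 week was 32.1% of that at 4 weeks, and the gap at 3 weeks was 85.4% of it.

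From the highest to the lowest mean, the groups stood in the order controls at 4, 3 and 1 weeks, then *hippo (RNAi)* animals at 1, 4 and 3 weeks. Of the neighbours in this order, controls at 3 weeks and at 1 week overlapped, since the lowest control at 3 weeks (44.2 TPM) was below the highest at 1 week (46.3 TPM). *hippo (RNAi)* animals at 4 weeks and at 3 weeks overlapped too, the lowest of 4 weeks (16.6 TPM) being below all of 3 weeks. The other 3 pairs of neighbours were separated, by 5.31 TPM between controls at 4 and 3 weeks, by 6.30 TPM between controls and *hippo (RNAi)* animals at 1 week, and by 8.52 TPM between *hippo (RNAi)* animals at 1 and 4 weeks. *LAL* therefore had 4 levels that did not overlap.

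The treatments followed opposite courses. In *hippo (RNAi)* animals, *LAL* after 3 weeks was at 61.4% of its mean at 1 week, and after 4 weeks at 63.4%. In controls it was at 111% of its mean at 1 week after 3 weeks and at 134% after 4 weeks. All 3 *hippo (RNAi)* libraries of 4 weeks were below all of 1 week, whereas all 3 controls of 4 weeks were above all of 1 week. In *hippo (RNAi)* animals the log2 difference from 1 week was -0.68 at 3 weeks and -0.64 at 4 weeks (SE 0.09 each). In controls it was 0.16 at 3 weeks and 0.42 at 4 weeks (SE 0.09 each). The control values depended on library 251O, without which they were 0.05 and 0.32.

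The gap between the means was wider at each later time point, but the step from 3 to 4 weeks was not large beside its SE. Between 1 and 3 weeks it changed by -0.83 on the log2 scale (SE 0.12), through lower *hippo (RNAi)* libraries (-0.68) more than through higher controls (0.16, and 0.05 without library 251O). Between 3 and 4 weeks the *hippo (RNAi)* level differed by 0.04 (SE 0.09), -0.013 without library 266O and -0.011 without library 269O. Controls differed by 0.27 (SE 0.09) in that interval, and the gap changed by -0.23 (SE 0.12), or by -0.14 without *hippo (RNAi)* library 268O. Over the whole span from 1 to 4 weeks the gap changed by -1.06 (SE 0.12), of which 40.0% came from controls. Without control library 251O the gap changed by -0.95 and controls by 0.32, a smaller share. Each difference rests on the same 3 libraries per group, so the intervals share libraries.

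**Figure D2:**
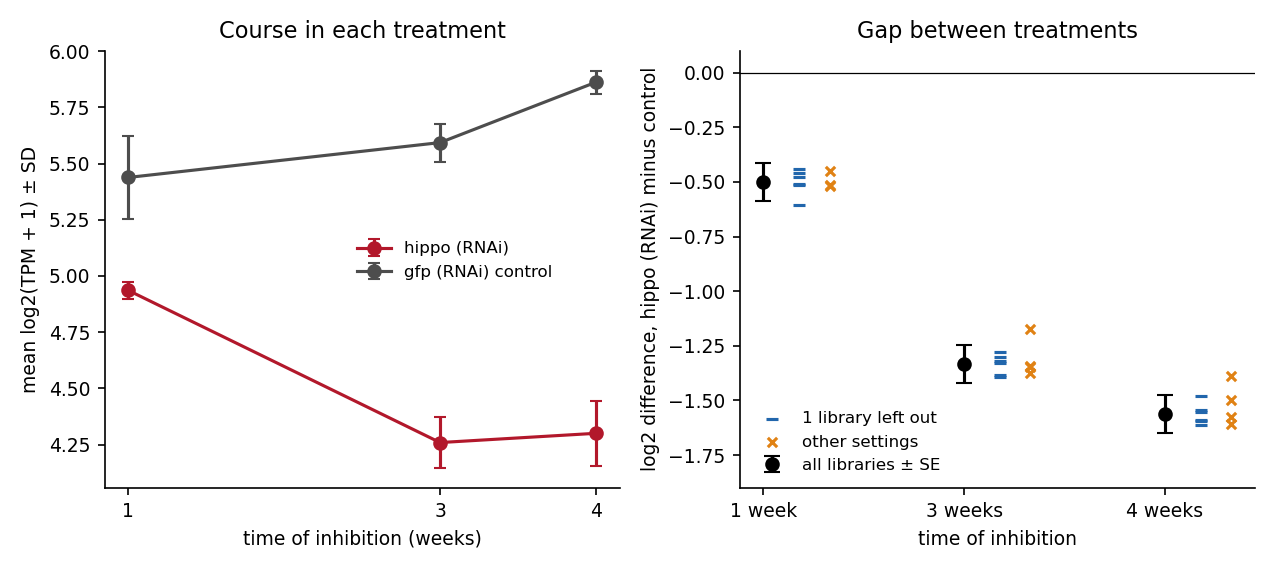
Left, mean log2(TPM + 1) of *lysosomal acid lipase* with SD (n = 3 libraries) against weeks of inhibition, red for *hippo (RNAi)* and grey for controls; right, the log2 difference of *hippo (RNAi)* minus control with its SE (black), with 1 library left out in turn (blue) and under the other settings (orange). The lines part from 1 to 4 weeks, and the difference lies at -0.50, -1.33 and -1.56 with all libraries, with the single orange value nearest to 0 at each week from a pseudocount of 5 TPM.

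Libraries 260O and 264O gave values like those numbered 266 to 269. At 3 weeks *LAL* was at 18.03 TPM in library 260O, between the 16.8 and 19.8 TPM of libraries 266O and 267O. At 4 weeks it was at 19.6 TPM in library 264O, between the 16.6 and 20.2 TPM of libraries 268O and 269O. Without the 4 libraries, which leaves 1 *hippo (RNAi)* library at each of these weeks, the gap was -1.34 at 3 weeks and -1.50 at 4 weeks (SE 0.11 each, taking the lone library to vary as the other groups do). The gap was therefore about as large without them.

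The spread of *LAL* between libraries of a group was ordinary for this table. Its SD within groups was 0.11 on the log2 scale, against a median of 0.14 over the tested transcripts, and 57.1% of these had a larger one. Within groups the SD was widest in controls at 1 week, at 12.6% of the mean, and narrowest in *hippo (RNAi)* animals at 1 week, at 2.72%. Among the transcripts of its own library, *LAL* moved down the ranks in *hippo (RNAi)* animals. At 4 weeks between 15.4% and 18.3% of all transcripts were more abundant than *LAL* in *hippo (RNAi)* libraries, against 5.28% to 5.71% in controls. At 1 week these shares were 10.6% to 10.9% in *hippo (RNAi)* libraries and 6.85% to 8.73% in controls.

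Set beside all tested transcripts, the *LAL* gap lay far out in the lower tail. At 1 week 597 of the 28735 transcripts had a more negative difference between *hippo (RNAi)* animals and controls, at 3 weeks 56 and at 4 weeks 33. The median over all tested transcripts was 0.02, 0.00 and 0.00 at 1, 3 and 4 weeks. The 4-week change of *LAL* in controls was exceeded in the upward direction by 1016 transcripts, or 3.54%. The change in *hippo (RNAi)* animals over the same span was exceeded in the downward direction by 675, or 2.35%. A transcript with no overlap between treatments was common at single weeks, and all *hippo (RNAi)* libraries were below all controls for 5.88%, 14.0% and 16.5% of transcripts at 1, 3 and 4 weeks. At all 3 weeks in turn this held for 391 transcripts (1.36%), and 197 (0.686%) had all 9 *hippo (RNAi)* libraries below all 9 controls, as *LAL* did.

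**Figure D3:**
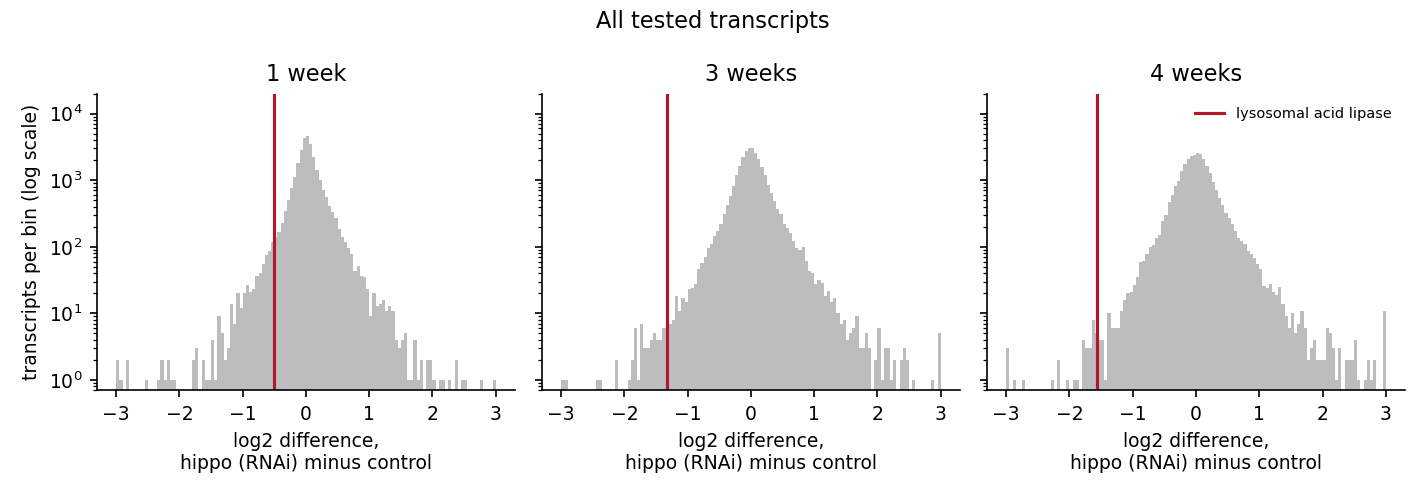
Number of tested transcripts (vertical axis, log scale) by log2 difference of *hippo (RNAi)* minus control at 1, 3 and 4 weeks, in grey, with *lysosomal acid lipase* as a red line; values beyond the ends of the axis are drawn in the end bins. The line moves outward, with 597, 56 and 33 transcripts to its left.

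The courses of *LAL*, up in controls and down in *hippo (RNAi)* animals, were shared by fewer transcripts than a lack of overlap at a single week. Conditions on both treatments together are met less often than either alone. The reverse courses, down in controls and up in *hippo (RNAi)* animals, were not counted. Controls at 4 weeks were all above those at 1 week for 2036 transcripts (7.09%), and *hippo (RNAi)* libraries at 4 weeks were all below those at 1 week for 4039 (14.1%). Both held for 393 transcripts (1.37%). Adding that *hippo (RNAi)* libraries were below controls at all 3 weeks left 44 transcripts (0.153%), with *LAL* among them. Without the condition on the course of *hippo (RNAi)* animals 85 transcripts (0.296%) remained, and 143 with median-ratio scaling of the libraries. A higher control level and a lower *hippo (RNAi)* level at 4 weeks than at 1 week, both at least as large as those of *LAL*, were found for 94 transcripts (0.327%). *LAL* was chosen for this course, so its place among these transcripts is no result about it.

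The transcripts most like *LAL* were found by the root mean square difference over the 18 libraries, after each transcript had been centred on its mean log2(TPM + 1). A transcript that did not vary at all would lie at 0.63 from *LAL*, and the median over all tested transcripts was 0.66. The nearest was dd_Smed_v6_704_0_1, at 0.16, followed by dd_Smed_v6_465_0_1, at 0.19. The sources used here do not pair these transcripts with names.

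dd_Smed_v6_704_0_1 was more abundant than *LAL*. Between 1 and 4 weeks it also went down in *hippo (RNAi)* animals and up in controls. It was at 103 ± 16.8 TPM (SD, n = 3 libraries) in *hippo (RNAi)* animals, against 132 ± 12.1 TPM in controls after 1 week, and at 64.0 ± 9.57 TPM in *hippo (RNAi)* animals, against 167 ± 13.5 TPM in controls after 4 weeks. Its log2 difference between *hippo (RNAi)* animals and controls was -0.37, -1.36 and -1.38 at 1, 3 and 4 weeks (SE 0.11 each). From 3 to 4 weeks this gap changed by -0.01 (SE 0.16), against -0.23 (SE 0.12) for *LAL*. dd_Smed_v6_465_0_1 was at 125 ± 14.8 TPM in *hippo (RNAi)* animals, against 164 ± 9.62 TPM in controls after 1 week, and at 81.4 ± 7.80 TPM in *hippo (RNAi)* animals, against 177 ± 1.48 TPM in controls after 4 weeks. The log2 difference of dd_Smed_v6_465_0_1 between treatments was -0.40, -1.35 and -1.12 at 1, 3 and 4 weeks (SE 0.10 each). Its gap thus changed by 0.23 (SE 0.13) from 3 to 4 weeks, opposite in sign to that of *LAL*. Its control level varied less than that of *LAL*, with a log2 difference of 0.12 between 4 weeks and 1 week, against 0.33 for dd_Smed_v6_704_0_1 and 0.42 for *LAL*.

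Mirror images of *LAL*, high in *hippo (RNAi)* animals where *LAL* was low, came closer in shape. dd_Smed_v6_7730_0_1 differed from the inverted course of *LAL* by 0.11 and dd_Smed_v6_2645_0_1 by 0.14. dd_Smed_v6_7730_0_1 was at 14.8 ± 1.56 TPM (SD, n = 3 libraries) in *hippo (RNAi)* animals, against 10.05 ± 0.86 TPM in controls after 1 week, and at 22.7 ± 1.70 TPM in *hippo (RNAi)* animals, against 7.69 ± 0.20 TPM in controls after 4 weeks. dd_Smed_v6_2645_0_1 was at 39.8 ± 4.79 TPM in *hippo (RNAi)* animals, against 28.5 ± 1.78 TPM in controls after 1 week, and at 65.5 ± 1.60 TPM in *hippo (RNAi)* animals, against 23.97 ± 1.15 TPM in controls after 4 weeks. Within a distance of 0.2, *LAL* had 3 like transcripts and 35 mirror images. Of all tested transcripts, 10.2% were called higher and 5.27% called lower in *hippo (RNAi)* animals at 3 weeks (limma, adjusted p below 0.05), so calls in the table as a whole were more often higher than lower.

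The study's section on cell cycle progression, in which *LAL* stands, holds 11 other genes. That list was chosen by the study on these libraries and is not independent evidence of a direction. At 1 week 5 of the 11 were called, all higher in *hippo (RNAi)* animals (*septin 4*, *insulin-like growth factor*, *protein tyrosine phosphatase*, *progranulin* and *dynamin 1-like*), beside 0.849% of all tested transcripts in either direction and 0.654% higher. Without *hippo (RNAi)* library 253O or 254O or control 249O, *dynamin 1-like* alone was called (1 of 11), and 3 genes were called without control 250O. With the libraries of 1 week fitted alone 0 of the 11 were called in limma, with 7 at an unadjusted p under 0.05. At 3 weeks 8 were called, 6 higher and 2 lower, beside 15.5% of all. At 4 weeks 8 were called, 6 higher and 2 lower, beside 21.6% of all (13.0% higher and 8.54% lower). The median log2 difference of the 11 was 0.06, 0.35 and 0.34 at 1, 3 and 4 weeks, beside 0.02, 0.00 and 0.00 over all tested transcripts.

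Of the 11 other genes, *caprin 1* and *alpha tubulin 3A* were called lower in *hippo (RNAi)* animals at 3 weeks. For *alpha tubulin 3A* the call is on dd_Smed_v6_10947_0_3, the most abundant of the 4 transcripts under its number. At 4 weeks *caprin 1* and the *muscarinic* receptor were called lower. *LAL* itself was not tested. The most negative difference among the 11 genes was -0.33 at 3 weeks and -0.26 at 4 weeks, against -1.33 and -1.56 for *LAL*. The value at 4 weeks is that of the *muscarinic* receptor, at only 2.26 TPM in *hippo (RNAi)* animals, against 2.90 TPM in controls. At such low values the scale understates the change, which was -0.35 with a pseudocount of 0.1 TPM. Without the *hippo (RNAi)* libraries numbered 266 to 269 *caprin 1* and *alpha tubulin 3A* were not called at 3 weeks, with adjusted p of 0.276 and 0.0739 from limma. The *muscarinic* receptor lost its call at 4 weeks without any one of control libraries 261O and 263O or *hippo (RNAi)* libraries 264O, 268O and 269O. Fitting each week alone in limma ended the calls of the *muscarinic* receptor at 4 weeks (adjusted p = 0.133) and of *alpha tubulin 3A* at 3 weeks (adjusted p = 0.0553). None of the 11 combined controls that were all higher at 4 weeks than at 1 week with *hippo (RNAi)* libraries that were all lower, and the smallest distance of any of them to *LAL* was 0.54.

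Within this list *progranulin* (dd_Smed_v6_67_0_1) is the other protein tied to lysosomes, in which it is cut into granulins in mammals. It was among the genes that differed from *LAL* in direction. After 1 week *progranulin* was at 541, 670 and 704 TPM in *hippo (RNAi)* animals, against 433, 454 and 516 TPM in controls. After 3 weeks it was at 898, 913 and 923 TPM in *hippo (RNAi)* animals, against 364, 376 and 389 TPM in controls. After 4 weeks it was at 979, 984 and 1004 TPM in *hippo (RNAi)* animals, against 384, 395 and 417 TPM in controls. The treatments did not overlap at any of these weeks, though the share of all transcripts with *hippo (RNAi)* libraries all above controls was not counted. The reverse separation held for 5.88%, 14.0% and 16.5% of tested transcripts at 1, 3 and 4 weeks, so a lack of overlap was common. *progranulin* was higher in *hippo (RNAi)* animals by 0.44 at 1 week, 1.27 at 3 weeks and 1.31 at 4 weeks on the log2 scale (SE 0.08 each, adjusted p = 0.0158, 3.74e-08 and 1.76e-08 from limma). At 1 week leaving out any one of 4 libraries (*hippo (RNAi)* 253O and 254O, controls 249O and 250O) lost the call, with adjusted p of 0.0546 to 0.0907 in limma.

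The course of *progranulin* in *hippo (RNAi)* animals also ran against that of *LAL*. In *hippo (RNAi)* animals *progranulin* was higher at 4 weeks than at 1 week by 0.64 on the log2 scale (SE 0.08, adjusted p = 5.65e-05 from limma), where 12.8% of all tested transcripts were called, 7.38% higher and 5.44% lower. The corresponding value for *LAL* was -0.64. In controls the difference for *progranulin* was -0.23 (SE 0.08), which did not pass the test (limma, adjusted p = 0.212). Without control library 251O it was -0.15 (limma, adjusted p = 0.515). All 3 controls of 4 weeks were below all of 1 week, a separation that was not counted over all transcripts. The reverse, controls of 4 weeks all above those of 1 week, held for 7.09% of them. The control means were 468, 376 and 399 TPM at 1, 3 and 4 weeks, so the level was not lower at each later time point. Between 1 and 4 weeks 1.01% of transcripts were called in controls, 0.505% higher and 0.508% lower.

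The list enters 3 further genes under progression through G1. *insulin-like growth factor* (dd_Smed_v6_3513_0_1), a secreted growth signal, was at 52.4, 52.7 and 55.5 TPM in *hippo (RNAi)* animals after 4 weeks, against 22.4, 22.9 and 24.9 TPM in controls. After 3 weeks it was at 47.2, 47.9 and 49.9 TPM in *hippo (RNAi)* animals, against 21.9, 22.9 and 23.0 TPM in controls, a log2 difference of 1.06 (SE 0.06, adjusted p = 1.25e-08 from limma). Its controls hardly varied, with means of 24.2, 22.6 and 23.4 TPM at 1, 3 and 4 weeks, where those of *LAL* were 42.6, 47.3 and 57.2 TPM. *CDC42* (dd_Smed_v6_698_0_1), a small GTPase that organises actin and polarity, was at 258, 259 and 269 TPM in *hippo (RNAi)* animals after 4 weeks, against 198, 210 and 211 TPM in controls. Its log2 difference was 0.34 (SE 0.03, adjusted p = 3.15e-06 from limma).

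*caprin 1* (dd_Smed_v6_936_0_1), an RNA-binding protein of the cytoplasm, was the G1 gene that differed in the same direction as *LAL*, by a far smaller amount. After 4 weeks it was at 293, 298 and 298 TPM in *hippo (RNAi)* animals, against 316, 327 and 329 TPM in controls, a log2 difference of -0.13 (SE 0.02, adjusted p = 0.00103 from limma). The groups did not overlap, which held in that direction for 16.5% of all tested transcripts at 4 weeks. At 1 week the difference was -0.03, which did not pass the test (limma, adjusted p = 0.662), and the groups overlapped.

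**Figure D4:**
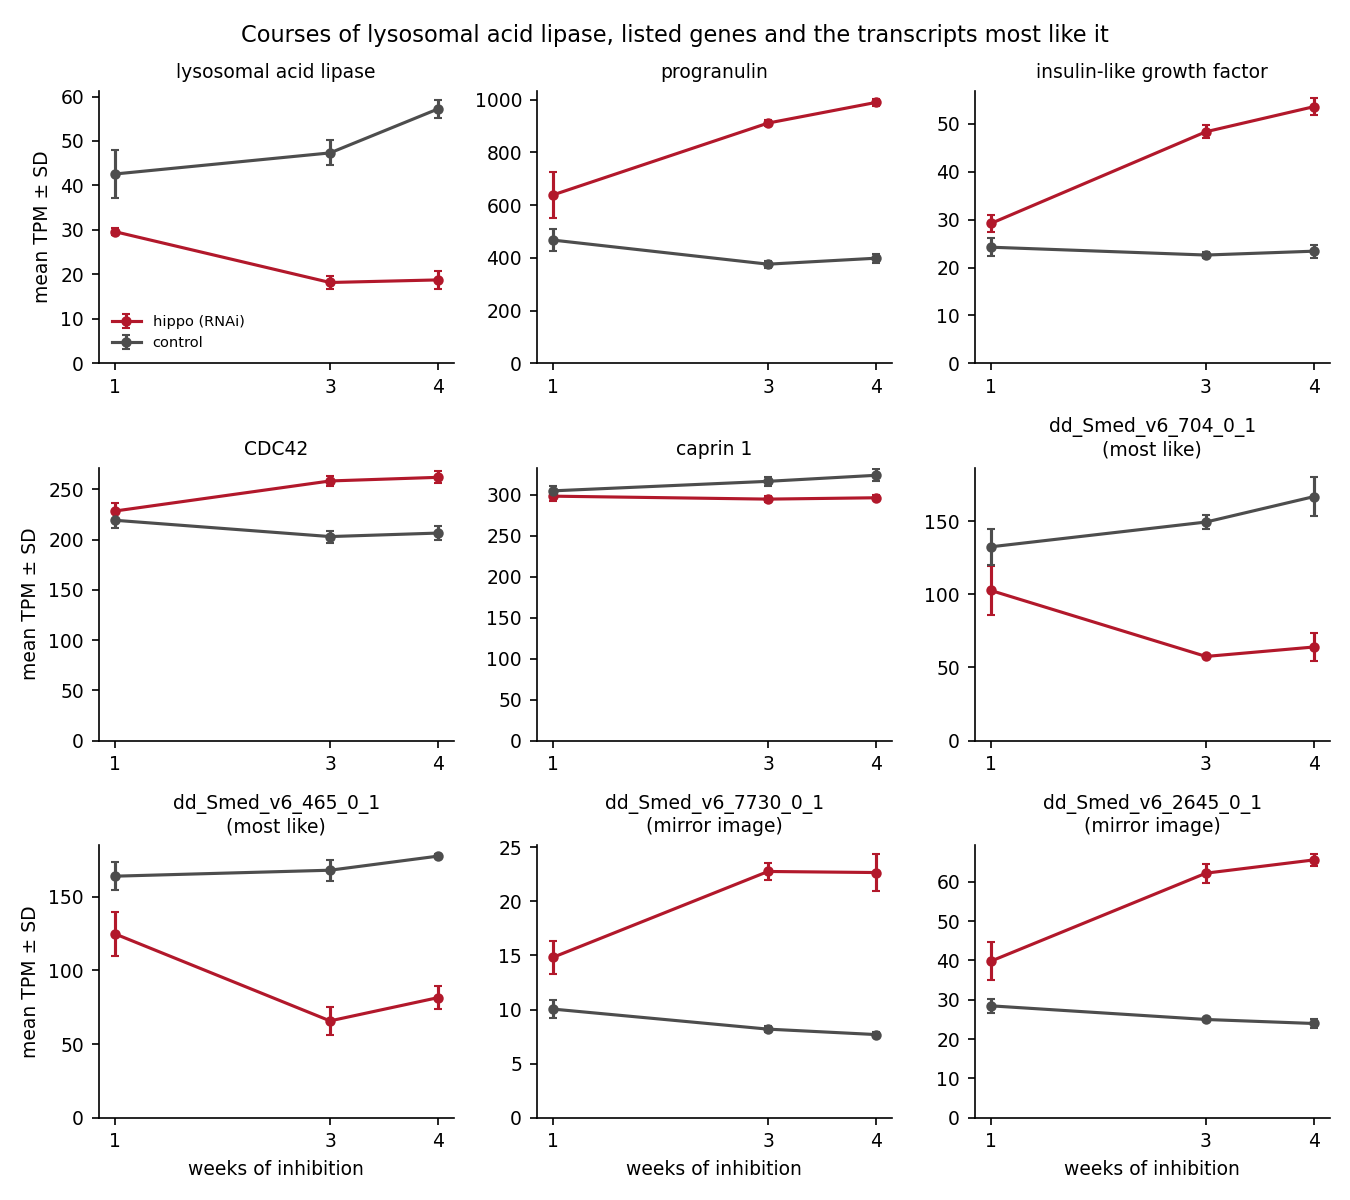
Mean TPM with SD (n = 3 libraries, vertical axes from 0 and scaled per panel) at 1, 3 and 4 weeks for *lysosomal acid lipase*, 4 genes of the same list, and the 4 transcripts chosen as most like it or its mirror image, red for *hippo (RNAi)* and grey for controls. *progranulin* reaches 989 TPM in *hippo (RNAi)* animals, against 399 TPM in controls at 4 weeks, where *lysosomal acid lipase* is at 18.8 TPM in *hippo (RNAi)* animals, against 57.2 TPM in controls.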

How the data were processed

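For each of the 18 libraries, the deposited values are TPM, which the authors obtained by pseudoalignment of the reads to the dd_Smed_v6 assembly (kallisto 0.43.0). The sources used here give neither read numbers nor filters. TPM are relative, so a rise of abundant transcripts lowers others.

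Groups came from the labels, which carry library numbers but no replicate numbers. Here, log2(TPM + 1) was fitted for the 28735 transcripts that averaged 1 TPM or more, by limma 3.58.1 in R 4.3.3 (trended variance, 1 mean per group, Benjamini-Hochberg adjustment over all of them, threshold 0.05). The fit was also run on simulated data, with normal noise and shifts planted only in more abundant transcripts of the *hippo (RNAi)* libraries of 3 weeks. That setting does not bear on how stable the calls at 1 week are. Figures used matplotlib 3.10.9. For codes with several transcripts the most abundant was taken. These were *alpha tubulin 3A*, with 4 transcripts, and *protein tyrosine phosphatase* and *centriolin*, with 2 each.

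The gene, the lists and the tests were chosen with earlier results of these data known. Named were *LAL*, its section of the study's list, and the 2 transcripts most like it and the 2 most like its mirror image. The alternatives were other pseudocounts and filters, median-ratio scaling, fits by week, and libraries left out.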

Additional observations from a re-analysis of the deposited data

Results flagged for a closer look

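The course of *LAL* over time differed between the treatments. All *hippo (RNAi)* libraries at 4 weeks were below those at 1 week (log2 difference -0.64), and all controls at 4 weeks were above those at 1 week (0.42), so the gap between the treatments changed by -1.06. The difference was not tested, because the gene was chosen for this course.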

How the results depend on the processing

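The differences of *LAL* gave 134 values under other settings, of which 132 kept their direction. The exceptions were *hippo (RNAi)* animals at 4 weeks against 3 weeks, where leaving out single libraries gave between -0.013 and 0.12, with -0.013 without library 266O and -0.011 without library 269O. A pseudocount of 5 TPM, which by construction shrinks differences, gave a gap of -1.17 at 3 weeks and -1.39 at 4 weeks and a change of the gap from 1 to 4 weeks of -0.94. The counts at 1 week were the least stable. Leaving out single libraries gave between 1 and 5 of the listed genes (1 without 249O, 253O or 254O and 3 without 250O) and between 55 and 403 of all transcripts, against 244 (55 without 254O, 75 without 249O, 81 without 253O and 403 without 252O). The libraries of that week alone gave 0 listed genes in limma, with 7 of 11 at an unadjusted p under 0.05, and 29 transcripts in all, and a filter of 10 TPM gave 381. Without the *hippo (RNAi)* libraries numbered 266 to 269 there were 2275 calls at 3 weeks and 3076 at 4 weeks, with fewer samples, against 4441 and 6195. With median-ratio scaling 143 transcripts, against 85, had *hippo (RNAi)* libraries below controls at all weeks and higher controls at 4 weeks than at 1 week. *centriolin* was at -0.04 at 4 weeks, 0.066 without library 269O and 0.062 without those numbered 266 to 269. The cause of these shifts was not tested. Summing transcripts of one number was not run, since *LAL* has 1. No paired analysis was possible because the labels give no replicate numbers. Settings for the step from 3 to 4 weeks, for the course of *progranulin* and for the distances to *LAL* were chosen after seeing the data. TPM keep no depth, so counting error is unknown.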

Other observations

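Control library 251O, in which *LAL* was at 36.4 TPM against 45.0 and 46.3 TPM in the other controls of 1 week, had the highest value of that group for *progranulin* and for both mirror images of *LAL*, but not for *insulin-like growth factor* (24.2 TPM, against 22.4 and 26.2 TPM). *progranulin* was at 516 TPM in library 251O, against 433 and 454 TPM. dd_Smed_v6_7730_0_1 was at 11.03 TPM there, against 9.44 and 9.66 TPM, and dd_Smed_v6_2645_0_1 at 30.5 TPM, against 27.1 and 27.8 TPM. The values of *progranulin* and of both mirror images lay on the side of the *hippo (RNAi)* libraries. Both transcripts most like *LAL* over all libraries lay on the other side. dd_Smed_v6_704_0_1 was at 141 TPM there, above the 119 and 138 TPM of the other controls, and dd_Smed_v6_465_0_1 at 171 TPM, above 153 and 168 TPM. *CDC42* was also highest in library 251O, at 226 TPM against 211 and 220 TPM, on the side of the *hippo (RNAi)* libraries. *caprin 1* was highest there too, at 311 TPM against 298 and 306 TPM, but on the other side. The mirror images were picked by their distance over all 18 libraries, 251O included. Their high values in that library are therefore partly built in by the choice. All these transcripts were picked after their values were seen.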
